A study of Mus musculus with 6 samples.

Results

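Clca1, Fcgbp, Zg16, Agr2, Spink4 and Spdef are genes known from goblet cells of the intestine, the cells that fill themselves with mucus. They were picked by name as 6 of the 17256 rows of the expression table, with their values already known: the choice used how they stood in PEEPA-P5 against vehicle and in vehicle 1 against vehicle 2 and 3. Both sets of values are therefore given as a description, without a test. The libraries come from the epithelium of the antrum, the part of the stomach before the outlet, of C57BL/6 mice. All animals, controls included, had 20 weeks of MNNG, an alkylating carcinogen, and a drug that the labels spell Ranitine, to induce atrophic gastritis, a chronic inflammation with loss of glands. For 2 weeks 3 of the 6 libraries' animals then had vehicle and 3 had PEEPA-P5, a compound known here only by this code, by gavage. The mice's age and sex are not given, nor whether each library is a separate animal, so p-values measure the spread between libraries, which may be technical.

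Mucus is built around gel-forming mucins, which are folded in the endoplasmic reticulum, packed into granules and released to swell into a gel. Goblet cells of the intestine add other proteins to that gel. CLCA1 is a secreted metalloprotease that cleaves the mucin MUC2, FCGBP is a large protein of repeated von Willebrand D domains found in the same gel, and ZG16 is a small lectin that binds bacterial cell walls. AGR2 is a disulfide isomerase needed for mucin folding, SPINK4 is a small secreted protein of the Kazal inhibitor type, and SPDEF is an ETS-family transcription factor of goblet cells and of mucous cells in antral glands. The stomach surface normally carries MUC5AC and the glands MUC6, while goblet cells in the stomach are a hallmark of intestinal metaplasia.

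Total counts per library lay between 16388852 and 16903559. No gene in the series passed an adjusted p of 0.05 in edgeR's quasi-likelihood test (0 of 13071 tested, or 0%, with a smallest adjusted p of 0.412), against 1576 at an unadjusted p under 0.05. DESeq2 called 110 genes and limma-trend on log2 TPM called 0. PEEPA-P5 3 stood apart with the lowest summed levels of fibroblast, endothelial and smooth muscle markers, and vehicle 3 with the highest of chief and parietal cell markers. Results are therefore also given without both libraries numbered 3, a choice made after the data had been seen.

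Clca1, Fcgbp and Zg16, the 3 genes for proteins that goblet cells secrete in bulk, had higher mean RNA levels with PEEPA-P5. On the fold scale these levels spread more widely among the vehicle libraries than among the PEEPA-P5 libraries. In TPM the SD of Zg16 was the larger with PEEPA-P5. Levels are in TPM, a transcript abundance scaled to a fixed total after allowing for transcript length, so that genes can be compared. Clca1 (Entrez 23844), the mucin-cleaving protease, stood at 943, 629.9 and 117 TPM in vehicle 1, 2 and 3 and at 1145, 1813 and 1474 TPM in PEEPA-P5 1, 2 and 3. The lowest PEEPA-P5 library lay above the highest vehicle library, but the gap to vehicle 1 was small beside the difference between vehicle 1 and vehicle 3, which was 8.05-fold. The group means were 1477 ± 334 TPM with PEEPA-P5 and 563 ± 417 TPM with vehicle (SD, n = 3 each). The fitted log2 difference, PEEPA-P5 minus vehicle, was 1.54 (SE 0.67). It was 2.19 without vehicle 1, 1.07 without vehicle 3 and 1.00 without both libraries numbered 3.

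Fcgbp (Entrez 215384), the gel protein with von Willebrand domains, stood at 639, 138 and 81.4 TPM in vehicle 1, 2 and 3 and at 546, 688 and 608 TPM in PEEPA-P5 1, 2 and 3. Vehicle 1 fell inside the PEEPA-P5 range, so the groups overlapped, and only vehicle 2 and 3 lay below the PEEPA-P5 libraries. The PEEPA-P5 libraries were close to each other, with the highest 1.26 times the lowest, whereas in vehicle the highest was 7.86 times the lowest. The group means were 614 ± 70.9 TPM with PEEPA-P5 and 286 ± 307 TPM with vehicle (SD, n = 3 each), and the fitted log2 difference was 1.21 (SE 0.76). It was 2.62 without vehicle 1, 0.79 without vehicle 3 and 0.72 without both libraries numbered 3.

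Zg16 (Entrez 69036), the lectin, stood at 461, 175 and 46.9 TPM in vehicle 1, 2 and 3 and at 922, 1505 and 495 TPM in PEEPA-P5 1, 2 and 3. The groups did not overlap, with PEEPA-P5 3 just above vehicle 1. It had the highest fitted difference of the 6 genes, a log2 difference of 2.199 (SE 0.81), from means of 974 ± 507 TPM with PEEPA-P5 and 228 ± 212 TPM with vehicle (SD, n = 3 each). Zg16 also differed most within the PEEPA-P5 group, where PEEPA-P5 2 was 3.04 times PEEPA-P5 3. Its log2 difference was 3.29 without vehicle 1, 1.73 without vehicle 3 and 2.01 without both libraries numbered 3.

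**Figure D1:**
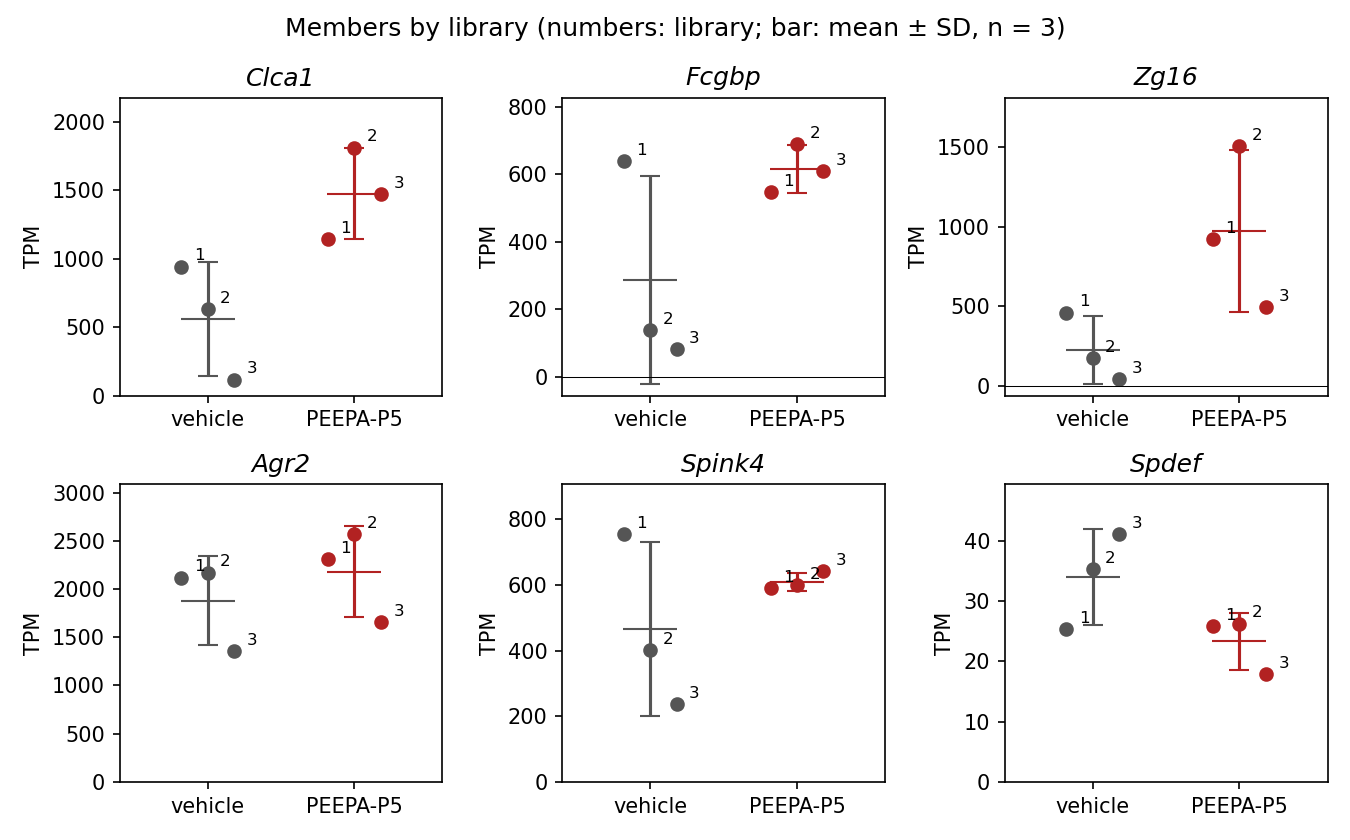
TPM of each of the 6 genes in each library, with vehicle in grey and PEEPA-P5 in red, library numbers beside the points, and bars for the mean ± SD of 3 libraries. Only Clca1 and Zg16 show no overlap of the groups, and vehicle 1 stands at 639 TPM for Fcgbp and 755 TPM for Spink4, well above vehicle 2 and 3.

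The folding gene and the Kazal-type gene differed less between the groups. Agr2 (Entrez 23795), the mucin-folding isomerase, stood at 2118, 2171 and 1353 TPM in vehicle 1, 2 and 3 and at 2309, 2573 and 1656 TPM in PEEPA-P5 1, 2 and 3. In both groups the library numbered 3 was the lowest, and PEEPA-P5 3 lay below vehicle 1 and 2 in TPM. The fitted log2 difference was 0.33 (SE 0.17), from means of 2179 ± 472 TPM with PEEPA-P5 and 1881 ± 457 TPM with vehicle (SD, n = 3 each). Spink4 (Entrez 20731), the Kazal-type protein, stood at 755, 402 and 238 TPM in vehicle 1, 2 and 3 and at 589.7, 599 and 641 TPM in PEEPA-P5 1, 2 and 3. Its highest library in TPM was vehicle 1, and the 3 PEEPA-P5 libraries differed by only 1.09-fold. The group means were 609.8 ± 27.5 TPM and 465 ± 264 TPM (SD, n = 3 each), and the fitted log2 difference was 0.55 (SE 0.37). It was 1.10 without vehicle 1, 0.28 without vehicle 3 and 0.16 without both libraries numbered 3. The effective transcript length implied by the deposited FPKM values was only 138 bases for Spink4, so its TPM rests on 557 to 1739 expected counts per library.

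Spdef (Entrez 30051), the transcription factor of the set, ran the other way. It stood at 25.4, 35.3 and 41.1 TPM in vehicle 1, 2 and 3 and at 25.9, 26.2 and 17.9 TPM in PEEPA-P5 1, 2 and 3. Vehicle 1 was as low as PEEPA-P5 1 and 2, so the groups overlapped. The means were 23.3 ± 4.71 TPM with PEEPA-P5 and 33.9 ± 7.96 TPM with vehicle (SD, n = 3 each), a fitted log2 difference of -0.48 (SE 0.22). Without both libraries numbered 3 the difference was -0.11, and without vehicle 3 alone it was -0.22. Vehicle 3 had the most Spdef and the least Clca1, Fcgbp, Zg16 and Spink4.

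The groups did not overlap, with PEEPA-P5 higher, in 2 of the 6 genes, Clca1 and Zg16, beside 9.74% of all tested genes, and did not overlap with PEEPA-P5 lower in 0 of 6, beside 10.7% of all tested genes. Since the genes were chosen on this contrast, nothing is read from these counts. The same applies to the vehicle group, where vehicle 1 was over 2-fold above both vehicle 2 and vehicle 3 in 3 of the 6, namely Fcgbp, Zg16 and Spink4, beside 1.12% of all tested genes. This count uses CPM, counts scaled to a fixed library total with TMM factors, a correction for library composition.

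Vehicle 1 resembled the PEEPA-P5 libraries in some of the genes only. Set against the PEEPA-P5 mean in TPM, vehicle 1 was at 1.04 times for Fcgbp, 1.24 times for Spink4, 0.972 times for Agr2 and 1.09 times for Spdef, but at 0.639 times for Clca1 and 0.474 times for Zg16. Vehicle 3 was at 0.0793, 0.133 and 0.0482 times the PEEPA-P5 mean for Clca1, Fcgbp and Zg16. Vehicle 2 was not uniformly intermediate: its Clca1 was 5.37 times that of vehicle 3, while its Fcgbp was only 1.70 times that of vehicle 3. As a result the ratio of Clca1 to Fcgbp in TPM was 4.56 in vehicle 2 and 1.48 and 1.44 in vehicle 1 and 3, against 2.10, 2.64 and 2.42 in PEEPA-P5 1, 2 and 3. The log2 range over the 3 vehicle libraries was 2.85 for Clca1, 2.82 for Fcgbp and 3.13 for Zg16, wider than in 98.9%, 98.8% and 99.2% of tested genes, whose median range was 0.37. Over the PEEPA-P5 libraries the ranges were 0.62, 0.34 and 1.36, wider than in 67.1%, 41.2% and 87.0% of tested genes. Since the genes were chosen with the vehicle values known, nothing is read from these ranks. In vehicle 1, 2 and 3 the 6 genes together took 0.897%, 0.391% and 0.181% of all counts, and in PEEPA-P5 1, 2 and 3 they took 0.915%, 1.22% and 1.02%.

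The order of the levels was partly shared by all libraries. Agr2 was the most abundant of the 6 in TPM and Spdef the least in every library, and Clca1 came second in all but vehicle 3, where Spink4 was above it. Fcgbp, Zg16 and Spink4 changed places between libraries, and in PEEPA-P5 their means of 614, 974 and 609.8 TPM differed by less than the SD of Zg16. Per read rather than per transcript Fcgbp led in PEEPA-P5, at 4973 ± 607 CPM (SD, n = 3), since its implied effective length was 7670 bases against 499.9 for Agr2 and 422 for Zg16.

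Sequence shared with other genes could blur the counts. Of 5 of the genes, all but Fcgbp, none of the 31-base stretches occurs in annotated transcripts of other genes (GENCODE M21), and no exon of another annotated gene overlaps any of the 6. Fcgbp shares 12.3% of its stretches with other genes, mostly with 9530053A07Rik, which was at 0.06 TPM at most in any library.

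Promoter sequences of build GRCm38.p6 were available for 3 of the 6 genes, Fcgbp, Agr2 and Spdef, which are shown for that reason alone. Each sequence is the 250 bases before the listed start site, read on the gene's strand: chr7:28070986-28071235 on the plus strand for Fcgbp, chr12:35992675-35992924 on the plus strand for Agr2, and chr17:27728952-27729201 on the minus strand for Spdef. The build is later than the mm9 named for the counts, and the sequences were matched by gene, not by position. Capitals mark matches on either strand to GGATG, which holds the GGAT core that SPDEF prefers, to CACCC, a KLF-type box, and to TTTATG, a CDX-type site. TGTTTAC, a FOXA-type site searched as well, had no match in the 3 windows.
Fcgbp: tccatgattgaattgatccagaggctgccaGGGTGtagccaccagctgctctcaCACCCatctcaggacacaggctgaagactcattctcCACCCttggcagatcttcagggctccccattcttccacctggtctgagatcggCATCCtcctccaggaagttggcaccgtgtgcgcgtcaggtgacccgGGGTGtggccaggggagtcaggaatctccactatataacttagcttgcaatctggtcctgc
Agr2: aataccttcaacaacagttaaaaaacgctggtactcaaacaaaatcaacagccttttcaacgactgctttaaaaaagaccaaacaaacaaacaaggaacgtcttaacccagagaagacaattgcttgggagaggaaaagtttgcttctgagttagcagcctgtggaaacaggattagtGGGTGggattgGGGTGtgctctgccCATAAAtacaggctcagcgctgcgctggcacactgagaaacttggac
Spdef: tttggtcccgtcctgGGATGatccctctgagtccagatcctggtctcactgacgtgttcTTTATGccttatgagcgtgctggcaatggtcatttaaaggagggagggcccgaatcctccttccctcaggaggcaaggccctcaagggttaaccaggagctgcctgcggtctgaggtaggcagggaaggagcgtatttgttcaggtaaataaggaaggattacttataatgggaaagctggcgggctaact
The Fcgbp window holds 1 GGATG, on the opposite strand and beginning 107 bases before the start, and 4 CACCC. The Agr2 window holds 2 CACCC and 1 TTTATG, the last 47 bases before the start and on the opposite strand. The Spdef window holds 1 GGATG and 1 TTTATG on its own strand, 235 and 191 bases before the start. Among 32851 promoter windows of the same length, 37.3% hold GGATG, 52.01% CACCC, 10.8% TTTATG and 3.17% TGTTTAC, so the matches are descriptions of sequence only.

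Other products of intestinal goblet cells did not share the levels of Clca1, Fcgbp and Zg16. Muc2, the gel-forming mucin of goblet cells, was at 0.62, 1.18 and 1.72 TPM in vehicle 1, 2 and 3 and at 0.56, 2.47 and 6.18 TPM in PEEPA-P5 1, 2 and 3. Tff3, the trefoil peptide of goblet cells, was at 34.3, 68.3 and 75.3 TPM and at 25.3, 146 and 329 TPM in the same order. Both were lowest in PEEPA-P5 1, where Clca1 was at 1145 TPM, and their vehicle values were lowest in vehicle 1, where Clca1, Fcgbp and Zg16 were highest. The label of goblet-type genes therefore holds for what the proteins are known for, while the defining goblet mucin was detected at low levels, 6.18 TPM at most with 707 counts. Itln1, an intelectin also made by Paneth cells, had another pattern, at 2.33, 2.08 and 0.27 TPM in vehicle 1, 2 and 3 and at 0.94, 0.79 and 0.66 TPM in PEEPA-P5 1, 2 and 3. Like Clca1, Fcgbp and Zg16 it was lowest in vehicle 3. Guca2a was at 1.52 TPM at most, and Atoh1, the goblet lineage factor, and Retnlb, both named after their values were seen, at 1.09 and 1.05 TPM at most. Of the 7 listed products 6 were in the table and 3 were tested, with 0 called in either direction and 0 at an unadjusted p under 0.05, beside 5.92% of tested genes higher and 6.14% lower at that level. Their median log2 difference was 1.52, against -0.00 over all tested genes, and it was 0.36 without PEEPA-P5 3.

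**Figure D2:**
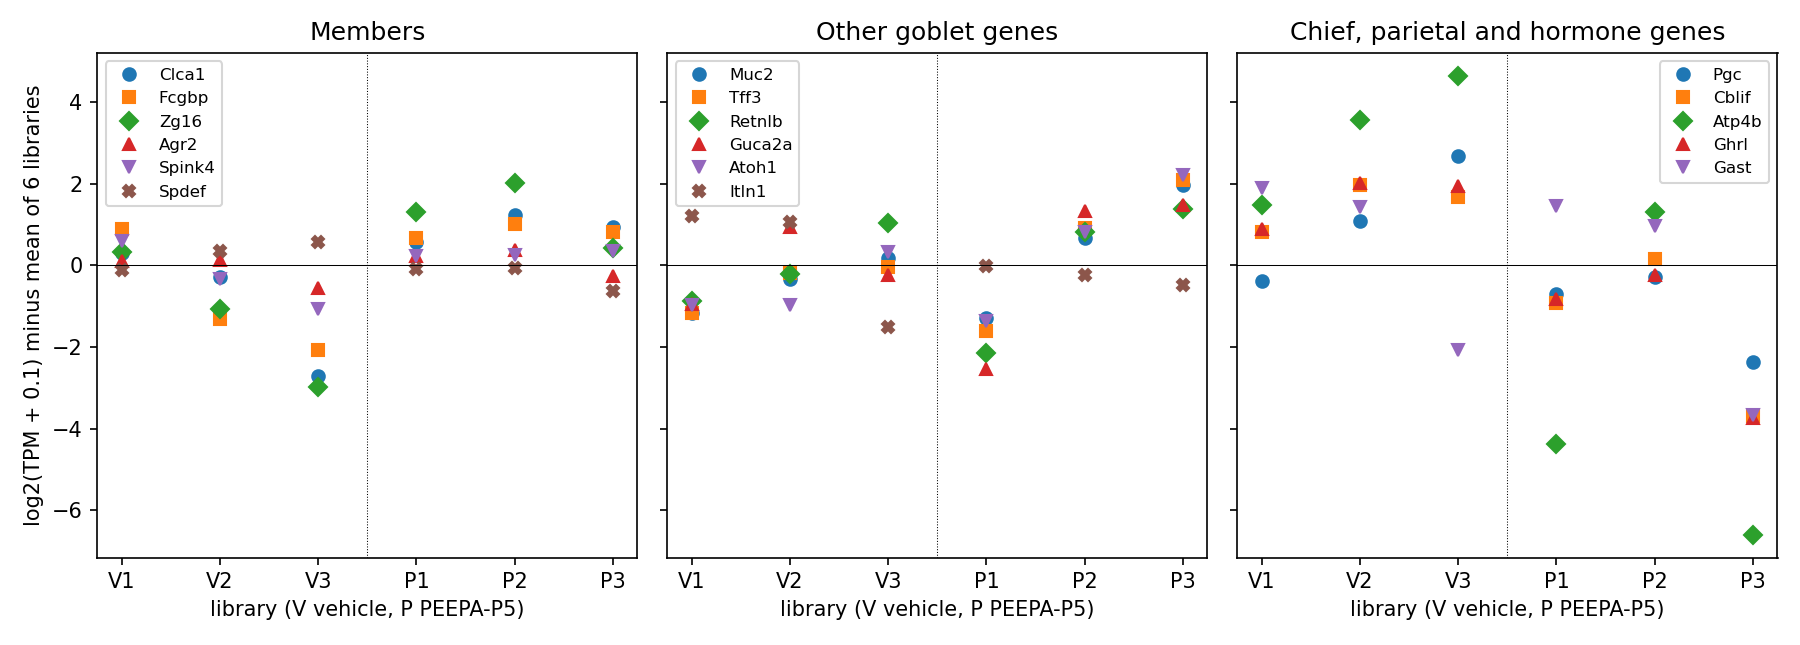
Level of each gene in each library as log2(TPM + 0.1) minus its mean over the 6 libraries, for the 6 genes described (left), other goblet genes (middle) and chief, parietal and hormone genes (right), with V for vehicle and P for PEEPA-P5. Clca1, Fcgbp and Zg16 are lowest in V3, while in the middle panel Itln1 is also lowest in V3 and the other 5 genes are lowest in P1 and highest in P3, as Tff3 at 25.3 TPM in P1 and 329 TPM in P3 shows.

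Regulators of goblet and intestinal fate differed in both directions. Of 12 listed, 9 were tested and 0 were called, and the median log2 difference was 0.28. At an unadjusted p under 0.05, 1 was higher and 0 lower, beside 5.92% and 6.14% of all tested genes. The groups did not overlap in 1 gene that was higher, Klf4, beside 9.74% of all tested genes. They did not overlap in 3 that were lower, Creb3l1, Foxa2 and Creb3l4, beside 10.7%, the last 2 named after their values were seen. Cdx2, the intestinal master regulator, also named after its values were seen, was at 1.54 ± 1.195 TPM with PEEPA-P5 against 0.710 ± 0.433 TPM, a log2 difference of 1.30, and Creb3l4 had a log2 difference of -0.89. Klf4, which promotes goblet and surface cell differentiation, was at 466 ± 48.6 TPM with PEEPA-P5 and 392 ± 56.9 TPM with vehicle, with a log2 difference of 0.37 (edgeR adjusted p 0.412). Elf3, an epithelial ETS factor, was at 330.2 ± 18.02 against 293 ± 40.4 TPM, and Hes1, the Notch target that opposes secretory fate, at 74.3 ± 0.99 against 63.8 ± 7.10 TPM (SD, n = 3 each throughout). Creb3l1, a membrane-bound factor of secretory cells, was at 54.4 ± 13.1 against 70.2 ± 4.16 TPM.

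Genes of protein folding in the endoplasmic reticulum, where AGR2 acts, lay on both sides of 0. Of 18 listed genes 17 were tested and 0 called. By fitted level 13 were higher and 4 lower with PEEPA-P5, beside 6454 and 6617 of all 13071 tested genes. On the CPM scale the groups did not overlap in 4 that were higher and 1 that was lower, beside 9.74% and 10.7% of all tested genes. At an unadjusted p under 0.05, 3 were higher and 1 lower, beside 5.92% and 6.14% of all tested genes. The median log2 difference was 0.14, or 0.064 with total counts in place of TMM factors. Ern2, an epithelial stress sensor needed by mucous cells, and Kdelr3, both named after their values were seen, had log2 differences of -0.33 and -0.38. Those of Creld2, Hsp90b1 and Manf, also named after their values were seen, were 0.36, 0.35 and 0.33. P4hb, the main protein disulfide isomerase, was at 591 ± 14.7 TPM with PEEPA-P5 against 528 ± 81.0 TPM, and the lectin chaperone gene Calr at 469 ± 96.3 against 456 ± 116 TPM. Hspa5, the chaperone BiP, was at 301 ± 21.3 against 292 ± 32.5 TPM and Pdia3 at 284 ± 41.8 against 285 ± 50.5 TPM. None of these levels approached that of Agr2.

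Enzymes that put sugars on mucins and genes of granule release were measured next. Of 16 glycosylation genes 15 were tested and 0 called, with a median of 0.20. On the CPM scale the groups did not overlap in 3 that were higher and 0 that were lower, beside 9.74% and 10.7% of all tested genes. At an unadjusted p under 0.05, 2 were higher and 1 lower, beside 5.92% and 6.14% of all tested genes. Gcnt3, which forms the core branches of mucin glycans, was at 199 ± 12.7 against 159 ± 25.0 TPM, with a log2 difference of 0.44 (edgeR adjusted p 0.412). B3gnt3 was at 172 ± 22.0 against 147 ± 38.0 TPM, Fut2, the secretor fucosyltransferase, at 98.6 ± 9.73 against 92.5 ± 18.1 TPM, and Galnt7, which starts and extends O-glycans, at 70.7 ± 7.56 against 68.3 ± 15.9 TPM. All 12 granule genes were tested and 0 called, with a median of 0.29. At an unadjusted p under 0.05, 3 were higher and 0 lower, beside the same 5.92% and 6.14%. The groups did not overlap on the CPM scale in 5 that were higher and 0 that were lower, beside the same 9.74% and 10.7%. Rab27a, a GTPase of secretory granules, was at 146 ± 15.2 against 105 ± 23.6 TPM, with a log2 difference of 0.59 (edgeR adjusted p 0.412). The granule SNARE gene Vamp8 was at 291 ± 19.7 against 252 ± 23.9 TPM, Rep15 at 287 ± 93.6 against 214 ± 44.8 TPM and Bcas1 at 234 ± 36.0 against 214 ± 25.5 TPM.

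Of 10 genes of ion transport and processing of the gel 5 were tested, 0 were called and the median was -0.07. At an unadjusted p under 0.05, 0 were higher and 1 lower, beside 5.92% and 6.14% of all tested genes. Slc12a2, the chloride-loading cotransporter, was at 28.6 ± 4.63 TPM with PEEPA-P5 against 32.2 ± 4.68 TPM, and Cftr, the chloride channel, at 2.92 ± 0.87 against 2.16 ± 1.91 TPM. Tgm2, a transglutaminase that cross-links proteins, was at 2.44 ± 1.31 against 5.02 ± 1.67 TPM (edgeR adjusted p 0.412). In TPM its groups overlapped, with PEEPA-P5 2 at 3.80 and vehicle 3 at 3.77. On the CPM scale it was the 1 tested gene of the list with groups apart and lower, beside 10.7% of all tested genes. None was apart and higher, beside 9.74%. The mucin-cleaving meprin genes Mep1a and Mep1b, named after their values were seen, reached no more than 1 and 3 counts.

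Among genes of the stomach's own mucus, Tff1, Gkn2, Gkn1 and Tff2 were the most abundant. Of 11 listed, all were tested and 0 called, with a median of 0.29. On the CPM scale the groups did not overlap in 4 that were higher and 0 that were lower, beside 9.74% and 10.7% of all tested genes. At an unadjusted p under 0.05, 2 were higher and 1 lower, beside 5.92% and 6.14% of all tested genes. Tff1 was at 256784 ± 25479 TPM with PEEPA-P5 against 220671 ± 21301 TPM, and Gkn2 and Gkn1, secreted gastrokines, at 69211 ± 4211 against 62670 ± 3492 TPM and at 29214 ± 928 against 25347 ± 966 TPM. Tff2, the trefoil peptide of gland mucous cells, was at 20604 ± 2384 against 20429 ± 4573 TPM. The PEEPA-P5 means of Muc5ac, Muc6 and Muc1 lay below that of Agr2, and Muc1 was at 250.5 TPM on average. Muc5ac and Muc6, the gel-forming mucins of surface and gland, and Muc1, a membrane mucin, are named after their values were seen. Muc5ac was at 1802, 1739 and 1568 TPM in vehicle 1, 2 and 3 and at 2049, 2019 and 1766 TPM in PEEPA-P5 1, 2 and 3, a span far narrower than that of Clca1. Muc6 was at 167, 435 and 500.3 TPM and at 136, 178 and 80.4 TPM in the same order, so that its vehicle libraries ranked as those of Spdef did.

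Relatives of the 6 genes ranged from silent to abundant. Of 18 listed, 13 were in the table and 5 were tested, with 0 called and a median of 0.28. On the CPM scale the groups did not overlap in 1 that was higher and 0 that were lower, beside 9.74% and 10.7% of all tested genes. At an unadjusted p under 0.05, 2 were higher and 0 lower, beside 5.92% and 6.14% of all tested genes. Clca4a was at 2.01 TPM at most and Agr3, the closest relative of Agr2, at 1.34 TPM at most, while the ETS genes Elf3 and Ehf, relatives of Spdef, were at 311 and 15.1 TPM on average over the 6 libraries. Of 14 genes of the type 2 cytokine response, known to induce Clca1 and Spdef in airways, 7 were tested and 0 were called, and the median was 0.09. At an unadjusted p under 0.05, 0 were higher and 1 was lower, beside the same 5.92% and 6.14%. The groups did not overlap on the CPM scale in 0 that were higher and 1 that was lower, beside the same 9.74% and 10.7%. The cytokine genes Il4, Il13 and Il5, named after their values were seen, had at most 1 count in any library. Il33 was at 18.9 ± 9.35 against 17.1 ± 8.76 TPM and Stat6 at 35.9 ± 0.84 against 36.5 ± 5.71 TPM.

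**Figure D3:**
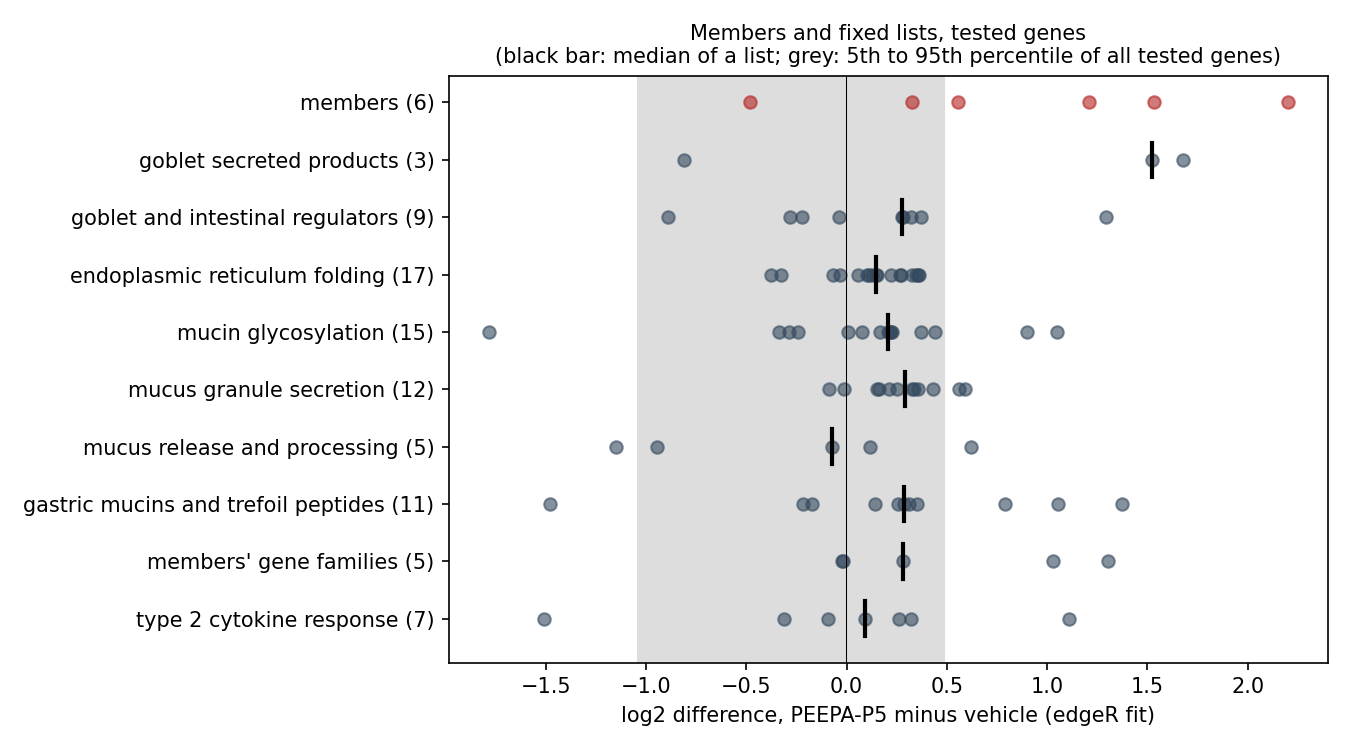
Fitted log2 difference, PEEPA-P5 minus vehicle, of the 6 genes (red) and of the tested genes of each list (number in brackets), with a black bar at each list's median and grey for the 5th to 95th percentile of all tested genes, -1.04 to 0.49. Clca1, Fcgbp, Zg16 and Spink4 lie above the grey band, and most genes of the folding, glycosylation and granule lists lie inside it.

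Levels of chief and parietal cell markers also differed widely across libraries. The summed level of 5 chief cell markers was 8547, 24246 and 72328 TPM in vehicle 1, 2 and 3 and 6580, 9123 and 2077 TPM in PEEPA-P5 1, 2 and 3. That of 8 parietal markers was 428, 1808 and 3482 TPM and 31.6, 398 and 22.8 TPM in the same order. Both sums were highest in vehicle 3, where Clca1, Fcgbp, Zg16 and Spink4 were lowest and Spdef highest, and within vehicle both were lowest in vehicle 1. All 5 chief and all 8 parietal markers had a lower fitted level with PEEPA-P5, with medians of -2.32 and -3.85. None was called, and 4 of the 5 and 6 of the 8 were lower at an unadjusted p under 0.05, beside 6.14% of all tested genes. The part of these cells in the differences of the 6 genes was not tested, and in bulk tissue fewer cells of a type and less RNA per cell cannot be told apart.

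Zg16 is also known from zymogen granules of the pancreas. Of 15 pancreatic acinar markers 13 were in the table, and their summed level was 3043, 14509 and 49651 TPM in vehicle 1, 2 and 3 and 841, 3916 and 445 TPM in PEEPA-P5 1, 2 and 3, the reverse of Zg16 in vehicle. In vehicle most of it was Clps, the colipase gene, at 48764 TPM in vehicle 3, while in PEEPA-P5 1 and 3 Clps was at 392 and 189 TPM and Cela1 at 445 and 248 TPM. The levels of Amy2a5, a pancreatic amylase gene, were 9.60, 821 and 559 TPM in vehicle 1, 2 and 3 and 0, 11.4 and 0 TPM in PEEPA-P5 1, 2 and 3, and Pnliprp2 reached 45.2 TPM. Of 6 tested markers 0 were called and 4 were lower at an unadjusted p under 0.05, beside 6.14% of all tested genes. The protease genes Prss1, Ctrb1 and Cela3b, named after their values were seen, reached no more than 3, 2 and 2 counts. The part of such cells in the Zg16 values was not tested. The summed level of 10 enterocyte markers was 939 to 1096 TPM in vehicle and 928 to 1088 TPM with PEEPA-P5. Rbp2 was the most abundant of them, at 440 TPM on average. The sum hid differences in both directions: of 8 tested, 4 had higher and 4 lower fitted levels, and 0 were called. Their log2 differences ran from -4.06 for Apoa4 to 1.57 for Alpi, both named after their values were seen. The sum of 6 tuft cell markers was 145 to 240.0 TPM in vehicle and 211 to 245 TPM with PEEPA-P5, and was mostly Avil, at 210 TPM on average. The other 4 tested tuft markers had lower fitted levels with PEEPA-P5, and the list median was -0.40. Only 3 of 8 Paneth cell markers were in the table, at a sum of 1.16 to 4.87 TPM in vehicle and 1.18 to 2.92 TPM with PEEPA-P5. Of 10 squamous markers, 7 were in the table, at a sum of 331 to 444 TPM in vehicle and 393 to 712 TPM with PEEPA-P5, mostly Sprr1a. All 4 tested squamous markers were higher at an unadjusted p under 0.05, with groups that did not overlap on the CPM scale and a median of 1.40, beside 5.92% and 9.74% of all tested genes, and 0 were called. The basal keratins Krt5 and Krt14, named after their values were seen, had at most 1 count in any library. The 6 enteroendocrine markers summed to 3986 to 11318 TPM in vehicle and 290.4 to 7852 TPM with PEEPA-P5. All 6 had lower fitted levels with PEEPA-P5, with a median of -1.15, and 0 were called. At an unadjusted p under 0.05, 1 was lower, beside 6.14% of all tested genes.

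Sums of connective tissue and immune markers were low in every library. The 6 fibroblast markers summed to 39.5 to 111 TPM in vehicle and 5.04 to 73.8 TPM with PEEPA-P5, the 5 endothelial markers to 12.04 to 20.5 and 1.89 to 13.3 TPM, and the 6 smooth muscle markers to 64.2 to 176 and 8.75 to 138 TPM. The 10 immune markers summed to 35.7 to 41.8 TPM in vehicle and 6.30 to 41.9 TPM with PEEPA-P5. Each minimum with PEEPA-P5 was in PEEPA-P5 3. All 6 fibroblast, 5 endothelial and 6 smooth muscle markers had lower fitted levels with PEEPA-P5, as did 5 of 6 tested immune markers. The medians were -0.66, -0.90, -0.79 and -0.74 in that order. In these 4 lists 0 were called and 0 had an unadjusted p under 0.05. In TPM, PEEPA-P5 3 lay within the range of PEEPA-P5 1 and 2 for Clca1 and Fcgbp, below it for Zg16, Agr2 and Spdef and above it for Spink4, and in CPM it was the highest of the 3 for Fcgbp.

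Genes of like pattern were taken by Pearson's r of log2 CPM over the 6 libraries among 9789 other genes with a mean of at least 5 CPM. With 6 points and so many candidates, some gene will reach a high r whatever the cause, and r ignores the size of a change. For Clca1 the nearest was Epcam, an epithelial adhesion gene (r = 0.998), followed by Anxa11 and Trp53i11 (both 0.993), yet Epcam only spanned 93.3 to 157 TPM. For Fcgbp they were Pof1b (0.992), Parp3 and Tprn (both 0.990), and for Zg16 Hnrnpll, Psma1 (both 0.992) and Ctnnb1 (0.990), all with far narrower ranges. For Agr2 they were Haus8 (0.997), Coro7 (0.995) and Akr1b10 (0.991). For Spink4 they were Gga1 (0.995), Ube2h (0.988) and Plac8 (0.987), and Plac8 also matched it in size, at 782, 402 and 282 TPM in vehicle 1, 2 and 3 and 609, 620.1 and 600.5 TPM in PEEPA-P5 1, 2 and 3. For Spdef they were Tmem64, Hibadh (both 0.999) and Dnajc15 (0.998), and Dnajc15 ranged from 36.6 TPM in PEEPA-P5 3 to 93.0 TPM in vehicle 3. Of the other 5 genes described, none was among the nearest 3 of any.

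**Figure D4:**
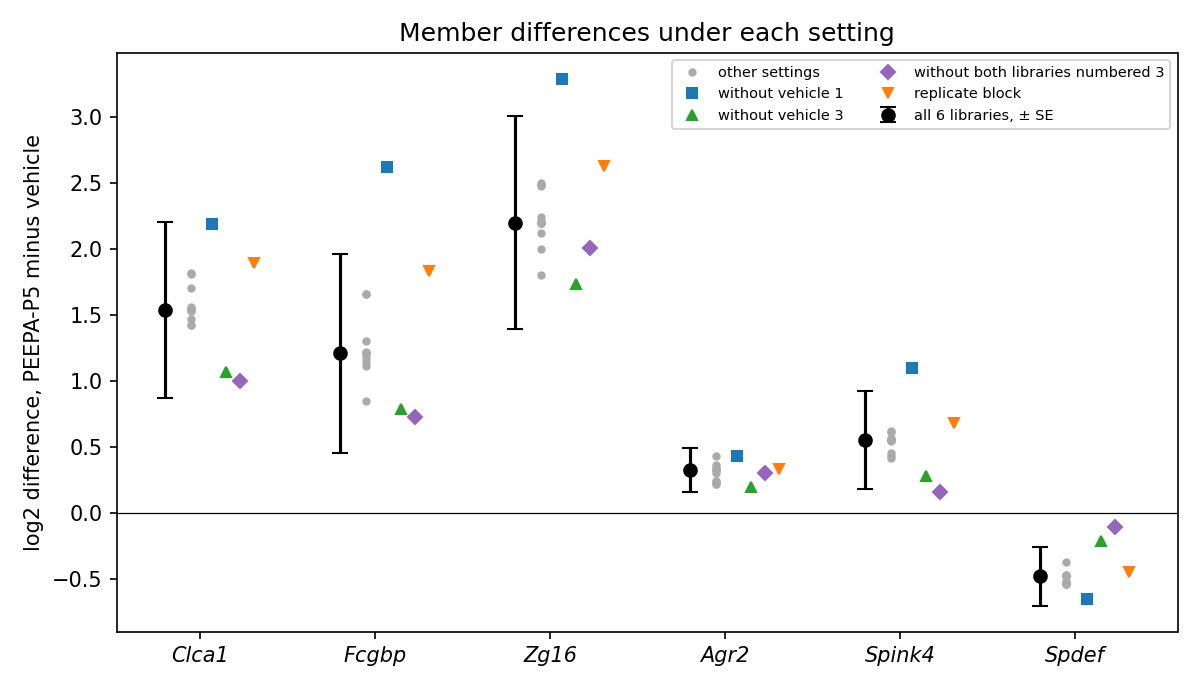
Fitted log2 difference, PEEPA-P5 minus vehicle, of each of the 6 genes with all 6 libraries (black, ± standard error) and under each other setting, with 4 settings marked by colour. The sign of each gene is the same under all settings drawn, while Fcgbp ranges from 0.72 without both libraries numbered 3 to 2.62 without vehicle 1.

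Libraries with the same number were also set side by side. The log2 CPM of PEEPA-P5 minus vehicle for numbers 1, 2 and 3 was 0.33, 1.69 and 3.73 for Clca1, -0.18, 2.48 and 2.98 for Fcgbp, and 1.07, 3.27 and 3.49 for Zg16. For Agr2 it was 0.19, 0.41 and 0.39, for Spink4 -0.26, 0.75 and 1.57, and for Spdef 0.06, -0.27 and -1.14. The pair numbered 1 gave the smallest size for every gene, and in Fcgbp, Spink4 and Spdef its sign was opposite to that of the other pairs. With the number as a block in the fit, the log2 difference of Fcgbp was 1.83.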

How the data were processed

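RNA was sequenced from antrum epithelium in 6 libraries. Per the labels' protocols, total RNA was taken with Trizol and libraries were made with an Illumina TruSeq kit. Bowtie2 2.2.5, RSEM 1.2.12 and build mm9 are named in the submitters' processing notes, with settings and strand not given in the sources used here. The authors deposited expected counts per gene (9.82% not whole), TPM and FPKM, the last 2 scaled by the authors to depth and transcript length. Total counts give the depth in the report.

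Expected counts were rounded and tested with edgeR 4.0.16 in R 4.3.3 (robust quasi-likelihood test, TMM factors, edgeR's expression filter, Benjamini-Hochberg adjustment at 0.05 over 13071 genes). Fitted log2 differences and standard errors come from that fit. CPM use TMM-scaled library sizes, and log2 CPM a prior count of 2. The code was tested on simulated data. Alternatives were DESeq2 1.42.0, other scaling and filters, limma-trend (limma 3.58.1) on log2 TPM, a replicate block and leaving out libraries.

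The 6 genes and all gene lists were chosen with earlier results of these data known. The text names the 6 genes, up to 4 genes per list with the highest mean TPM, and 3 genes of like pattern per gene, without predicted gene models. No 2 libraries looked like repeats of one library: over genes with a pair sum of 20 counts or more, the lowest chi-square per degree of freedom was 13.3.

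The labels number the libraries 1 to 3 in both groups. Deviations of log2 CPM from each group's mean had correlations of 0.237, 0.346 and 0.235 between same-numbered libraries, all above 0.1. Vehicle 2 and PEEPA-P5 1 also exceeded 0.1, at 0.176, and the other unlike-numbered pairs lay between -0.349 and 0.027. Such deviations cancel within a group, so positive correlations must come with negative ones. These values therefore cannot show that the numbers are pairs. The numbers were taken only as possible pairs. This pairing comes from the data, and the main fit does not use it.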

Additional observations from a re-analysis of the deposited data

How the results depend on the processing

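The fitted sign of each of the 6 genes was the same under every alternative run. The runs refit these same libraries or some of them, and the genes were chosen on this contrast, so nothing is read from that. Taken alone, the libraries numbered 1 gave the opposite sign for Fcgbp, Spink4 and Spdef. The fitted log2 differences, PEEPA-P5 minus vehicle, ranged over all settings from 1.00 to 2.19 for Clca1, 0.72 to 2.62 for Fcgbp, 1.73 to 3.29 for Zg16, 0.20 to 0.43 for Agr2, 0.16 to 1.10 for Spink4 and -0.65 to -0.11 for Spdef. With each library left out in turn, Fcgbp ranged from 0.79 to 2.62. Without both libraries numbered 3 Spdef was at -0.11, and the list medians were 0.11 for regulators and 0.070 for glycosylation. With total counts in place of TMM factors the medians were 0.064 for folding and 0.12 for glycosylation. With each library left out, the median of goblet products ranged from 0.36 to 2.03, that of regulators from 0.029 to 0.36 and that of glycosylation from 0.12 to 0.22.

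Genes past the adjusted threshold numbered 0 with edgeR and 110 with DESeq2, and 0 to 1 with each library left out (1 without vehicle 1). Genes at an unadjusted p under 0.05 ranged from 717 without vehicle 2 to 2070 without vehicle 1, with 759 without vehicle 3 and 1008 without PEEPA-P5 1. With the replicate number as a block they numbered 1788 and 0 passed the adjusted threshold. The block changed no call, and of the 6 genes it moved Fcgbp most, to 1.83. The cause of these changes was not tested. The lowest count of any of the 6 genes was 338, for Zg16 in vehicle 3, and the effect of depth was not tested.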
